A study of Mus musculus with 4 samples.

Results

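The collagen genes of fibroblasts from mouse mammary tumours were examined here. They were taken as the protein-coding genes of the GENCODE M21 annotation whose symbol has the form Col, a number, a and a number, such as Col1a1. The annotation holds 44 such genes, of which 42 are among the 22456 genes of the table. The 37 with a mean value of at least log2 of 10 over the libraries were tested, within a fit over all 14548 genes at that level. Below that level lay Col2a1 at 2.53, Col17a1 at 2.51, Col9a2 at 2.32, Col22a1 at 1.73 and Col19a1 at -0.99 (log2), while the lowest genes above it were Col25a1 at 3.65 and Col10a1 at 3.67. Col9a1 and Col4a6 were not analysed here.

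Both groups of libraries came from the mesenchymal fraction of tumours that 4T1 cells, a Balb/c mammary carcinoma line, had formed in the fat pad of Balb/cAnN mice by day 8. In the DMSO group (2 libraries) the cancer cells had been given the solvent before injection. In the GSK group (2 libraries) they had been given 5 µM of the compound GSK269962A for 5 days. The hosts of both groups are described in the same way, and no genotype, sex or animal age is given. The fraction was what remained after cells with CD45, CD31, CD326 or human CD2 had been removed on magnetic columns, so it keeps any mesenchymal cell, pericytes and smooth muscle included. The labels do not tie libraries to animals, and p-values here therefore reflect no more than sample-to-sample spread, which may be technical. Values are the authors' normalised log2 expression, and the depth behind them is unknown.

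Collagens are secreted as trimers of chains wound into a triple helix. Types I and III, with smaller amounts of V and XI, assemble into the striated fibrils that give connective tissue its tensile strength, and fibril-associated collagens (FACIT) such as XII and XIV sit on the fibril surface. Type IV forms the network of basement membranes, type VI beaded microfilaments close to cells, and type VII the anchoring fibrils that tie an epithelial basement membrane to the stroma. In tumours fibroblasts are the main source of fibrillar collagen.

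Fibroblast markers (7 of 7 above the filter) averaged 14.13 to 14.28 (log2) over the 4 libraries; Col1a1, itself a collagen gene, is one of the 7. Of the other cell types, pericyte genes averaged 11.08 to 11.41 and smooth muscle genes 11.11 to 11.49, while endothelial genes averaged 3.31 to 3.36, epithelial or 4T1 genes 2.32 to 2.35 and keratinocyte genes 2.59 to 2.60. Epcam was at 0.32 and Pecam1 at 3.31. Pan-leukocyte genes averaged 5.68 to 6.08, with Cd53 at 11.03 far above Ptprc at 3.81. They summed to 10.74 and 10.51 in DMSO and to 11.83 and 11.19 in GSK, higher in both GSK libraries. That sum is mostly Cd53, at 0.91 (GSK minus DMSO, log2), while Ptprc was at 0.07, Laptm5 at 0.06 and Coro1a at 0.03. Macrophage genes summed to 8.57 and 8.47 in DMSO and to 8.50 and 8.34 in GSK, which overlap. In such bulk samples a smaller number of cells of a type and less RNA per cell cannot be told apart.

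Collagen genes made up a large part of the fibroblast transcriptome. Summed on the linear scale (2 to the power of each value), the 37 genes took 18.5% (library 1) and 18.7% (library 2) of the DMSO total, and 17.9% and 19.1% of the GSK total. The DMSO values lie between the GSK values, so the groups overlap, and the means of 18.6% ± 0.11 (SD, n = 2) and 18.5% ± 0.83 (SD, n = 2) did not separate (exact permutation test over the 6 divisions of the libraries, two-sided, p = 1). With 2 libraries a group this test cannot go below 0.333. With each gene divided by its exon length before summing, the share was 7.89% and 8.05% in DMSO and 7.66% and 8.37% in GSK. The collagen sum thus varied more between the 2 GSK libraries than between the group means.

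**Figure D1:**
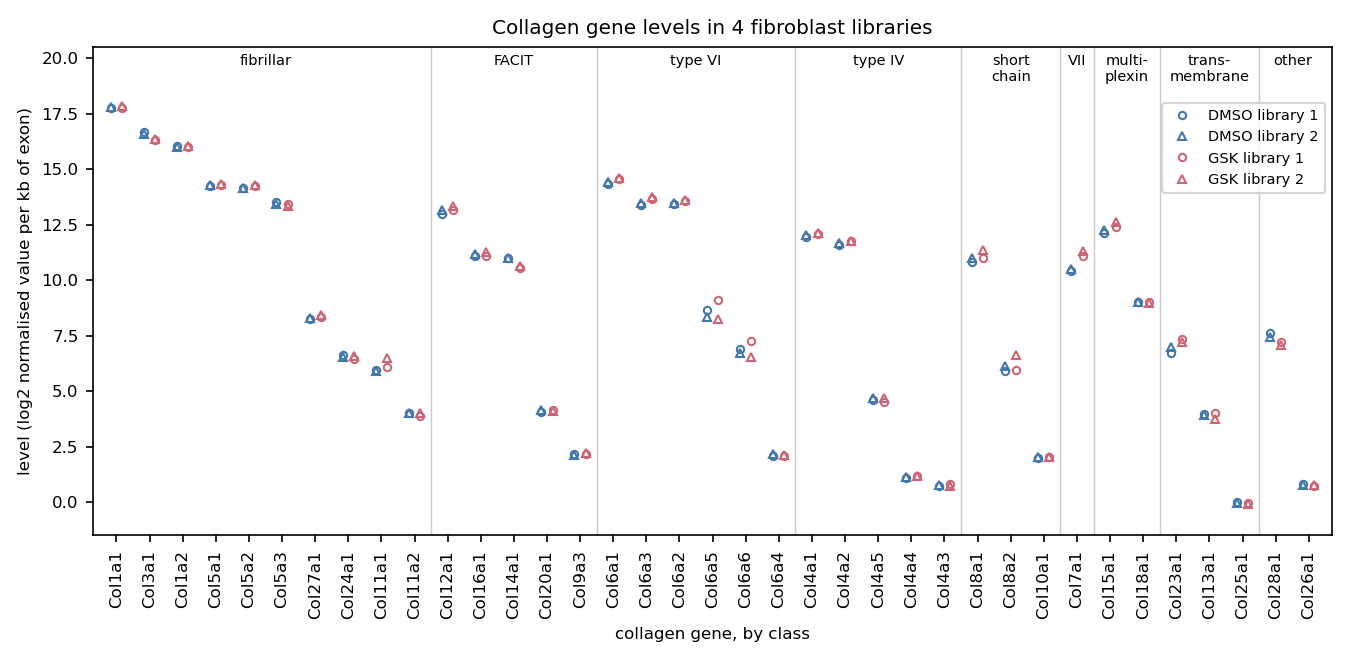
Level of each of the 37 collagen genes in each library, as the normalised log2 value minus log2 of the exon length in kb (y axis), with genes on the x axis grouped by class and ordered by level within it; blue marks are DMSO, red marks GSK, circles library 1 and triangles library 2. Col1a1, Col3a1 and Col1a2 stand highest, and the libraries of Col6a5, Col6a6 and Col8a2 lie farther apart than those of the leading genes.

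Levels of different genes were compared per kb of annotated exon (log2 per kb). Per kb, the fibrillar chains led: Col1a1, the major chain of type I collagen, averaged 17.80, Col3a1, the single chain of type III, 16.48 and Col1a2, the minor chain of type I, 16.02. The 4 values of each of these genes lay apart from those of the next gene in the order. A second tier held Col6a1 at 14.48, Col5a1 at 14.29 and Col5a2 at 14.20. At this length the values of Col5a1 and Col5a2, partners in type V collagen, overlapped. Col6a3 at 13.56, Col6a2 at 13.52, Col5a3 at 13.44 and Col12a1 at 13.16 followed, and no neighbours among these were apart. Col15a1 at 12.35, Col4a1 at 12.04 and Col4a2 at 11.68 were each apart from the next, and then came Col16a1 at 11.16, Col8a1 at 11.04, Col7a1 at 10.82 and Col14a1 at 10.79, which overlapped their neighbours. A gap of 1.78 (log2 per kb) divided Col14a1 from Col18a1 at 9.01, and the remaining genes ran down to Col25a1 at -0.04. In all, 19 of 36 neighbouring pairs had no overlap between their 4 values. With the length of the longest coding transcript in place of all exons, the same 12 genes led, and no gene moved by more than 3 places. The order within the second tier changed, to Col5a2 at 14.73, Col6a1 at 14.57, Col6a2 at 14.36 and Col5a1 at 14.3. Steps between near neighbours thus depend on the length taken, which the overlap of 4 values does not cover.

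The low end of the list held collagens known from other tissues. Col2a1, the cartilage fibrillar chain, and Col17a1, a transmembrane collagen of epithelial hemidesmosomes, missed the filter, and Col10a1, of hypertrophic cartilage, was at 2.02 (log2 per kb). Of the type IV chains, Col4a3 and Col4a4, known from the kidney filter, were at 0.76 and 1.14 per kb against 12.04 for Col4a1. Col9a3 shares 234 bases at 100% identity with Tcfl5, and Col4a3 shares 289 bases at 100% with C430014B12Rik, each an overlapping gene on the opposite strand. Whether the counting used strand is not stated, so both low values are uncertain. Nt5dc1 overlaps the gene span of Col10a1 on the other strand. BX649560.1 overlaps that of Col20a1 on its own strand, at a higher level. Whether the exons of these pairs overlap, and so whether these low values are uncertain as well, was not examined. No other collagen transcript matched another gene at 98% over 200 bases.

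Within type I collagen, whose trimer holds more of the Col1a1 chain than of the Col1a2 chain, the log2 ratio of Col1a1 to Col1a2 per kb was 1.75 and 1.80 in DMSO and 1.77 and 1.81 in GSK. The groups overlap and the ratio barely moved between libraries. Its size depends on the length taken for Col1a2: 3.44-fold with all annotated exons and 1.64-fold with the longest coding transcript. For type IV, the ratio of Col4a2 to Col4a1 was -0.37 and -0.38 in DMSO and -0.34 in both GSK libraries (log2). These genes lie head to head on chromosome 8, with annotated starts that overlap by 22 bases, and their differences between GSK and DMSO were alike, 0.13 for Col4a1 and 0.16 for Col4a2.

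A sequence feature shared by many of these genes is a match to the seed of the miR-29 family, microRNAs known to repress collagen and other matrix genes in fibroblasts. The mature miRNAs (RefSeq, GRCm38.p6) are printed 5′ to 3′ with the seed, bases 2 to 8, in capitals, to show that all 3 share it.
mmu-miR-29a-3p: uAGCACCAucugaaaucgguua
mmu-miR-29b-3p: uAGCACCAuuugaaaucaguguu
mmu-miR-29c-3p: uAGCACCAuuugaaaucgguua

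The complement of that seed, TGGTGCT on the transcript strand, was searched in the 3′ UTR of the longest coding transcript of each gene. A match was found in 21 of 36 collagen genes with an annotated 3′ UTR (58.3%), against 15.7% of 12819 tested protein-coding genes. Matches stood at 7.0 per 10 kb of collagen 3′ UTR and 1.14 per 10 kb of all, at a median 3′ UTR length of 1175 and 1173 bases. Several matches in a single 3′ UTR were present in 9 collagen genes (25%, against 2.53%), among them Col5a1 with 4 and Col5a3 and Col4a5 with 3 each. Of the abundant chains, Col1a2, Col6a1 and Col12a1 had no match in the 3′ UTR searched. As examples across classes, 1 match from each of 6 genes is printed from the transcript strand with the complement in capitals, here running on into an A (TGGTGCTA). Col7a1 holds another match, not printed, that does not run on into an A.
Col1a1 (chr11:94952522-94952545, plus strand): ggtgggaaggaatttcTGGTGCTA
Col3a1 (chr1:45348966-45348989, plus strand): cttcaaaatgtctcaaTGGTGCTA
Col5a2 (chr1:45374965-45374988, minus strand): acttttcttttaatgaTGGTGCTA
Col6a3 (chr1:90767411-90767434, minus strand): acgtgacctgtcaataTGGTGCTA
Col7a1 (chr9:108984579-108984602, plus strand): cctgctgtgctccattTGGTGCTA
Col15a1 (chr4:47312484-47312507, plus strand): aatccaatccacatatTGGTGCTA

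Carrying a match did not divide the collagen genes by their difference between groups. The median of GSK minus DMSO was 0.05 over those with a match and 0.032 over those without (log2), and Col3a1 at -0.30 and Col7a1 at 0.73 both carry one. A match is a description of the letters, and miR-29 itself is not analysed here.

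The comparison of GSK with DMSO asks whether fibroblasts express collagens differently in tumours grown from pre-treated cancer cells. None of the 37 collagen genes passed an adjusted p of 0.05 in limma, against 0.282% of all genes tested. An unadjusted p under 0.05 was reached by 7 collagen genes (18.9%, against 16.0% of all genes), with 5 higher in GSK (13.5%, against 7.88%) and 2 lower (5.41%, against 8.13%). The smallest p belonged to Col7a1, 1.66-fold higher in GSK, and Col14a1, 1.33-fold lower, whose adjusted p of 0.0543 and 0.0564 lay just over the threshold. The main fibrillar chains Col1a1 and Col1a2 differed by 0.02 ± 0.24 and 0.00 ± 0.19 (log2, limma SE).

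Over the 37 genes the differences ran from -0.41 to 0.73, with 24 above and 13 below 0 and a median of 0.039, against -0.001 over all genes tested. A size of at least 0.25 was reached by 10 collagen genes, or 27.0% of them against 4.61% of all genes. Of these, 7 were higher (18.9%, against 2.19%) and 3 lower (8.11%, against 2.43%). The groups did not overlap in 19 collagen genes (51.4%), close to the 48.6% of all genes tested. Both GSK libraries lay above both DMSO libraries in 15 of them (40.5%, against 24.1%) and below in 4 (10.8%, against 24.5%). The collagen genes were also more variable than most: their median range over the 4 libraries was 0.18, against 0.113 over all genes tested. With 1 library left out, the differences of the 7 genes with an unadjusted p under 0.05 kept their signs but varied in size. Col7a1 ran from 0.612 to 0.857, Col23a1 from 0.301 to 0.59 and Col11a1 from 0.159 to 0.555. Col15a1 ran from 0.213 to 0.397, Col4a2 from 0.117 to 0.212, Col14a1 from -0.444 to -0.369 and Col28a1 from -0.484 to -0.277. The signs of 13 other collagen genes turned under some alternative.

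**Figure D2:**
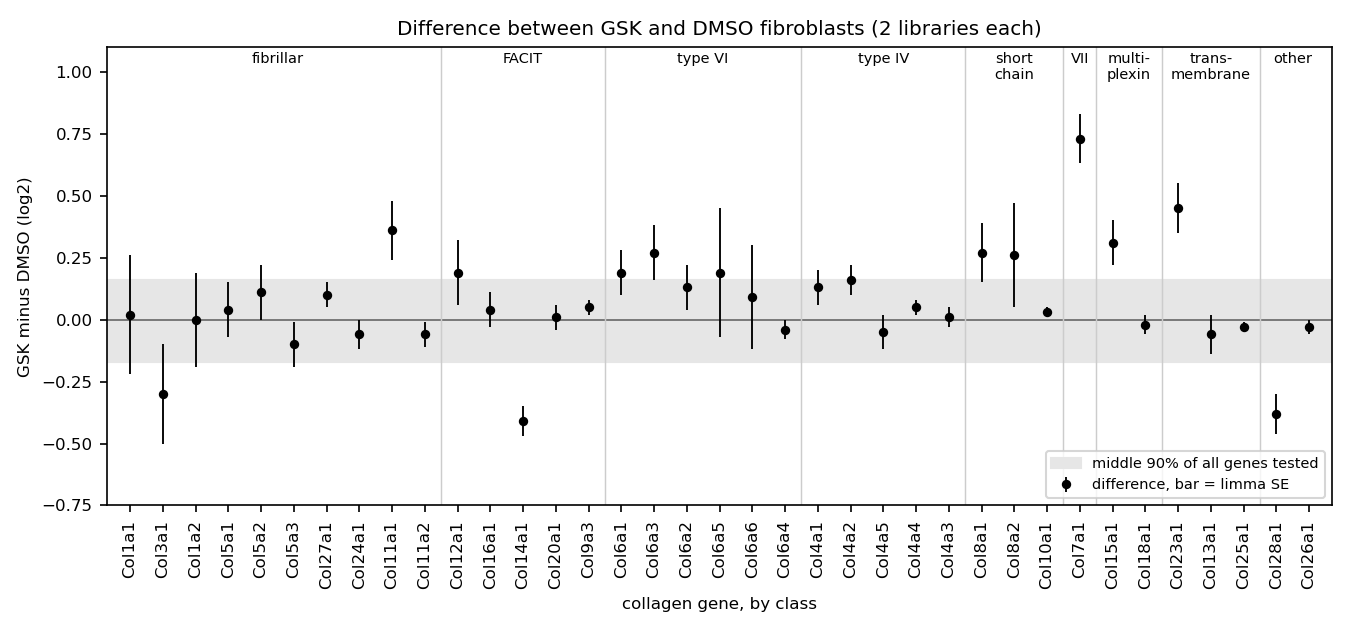
GSK minus DMSO (log2, y axis) for each collagen gene by class (x axis), with bars for limma's SE and a grey band for the middle 90% of all 14548 genes tested, -0.17 to 0.16. Col7a1 stands highest at 0.73 and Col14a1 lowest at -0.41, and 14 of the 37 genes lie outside the band.

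Type VII collagen showed the largest difference. Its only chain, Col7a1 (ENSMUSG00000025650, GRCm38 chromosome 9, 108953586 to 108984875), was at 13.76 and 13.87 in the DMSO libraries and at 14.43 and 14.67 in the GSK libraries (log2). Both GSK libraries lie above both DMSO libraries, by more than either pair differs. The means were 13.82 ± 0.08 and 14.55 ± 0.17 (SD, n = 2), a difference of 0.73 ± 0.10 (limma SE, adjusted p = 0.0543). The adjusted p was 0.0384 without GSK library 1, 0.0437 without DMSO library 2, 0.0682 without GSK library 2 and 0.178 without DMSO library 1. In each of these fits the lone library of a group is assumed to vary like the other group. Col7a1 is known from keratinocytes as well as fibroblasts. The keratinocyte genes, 1 of 2 in the table above the filter, summed to 5.23 to 5.24 (log2) in all 4 libraries, with Lor at -0.01 and Krt14 of the epithelial list at 1.17; their part in the difference was not tested.

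The FACIT collagens had differences of both signs. Col14a1 (ENSMUSG00000022371, chromosome 15, 55307750 to 55520803), a collagen of the fibril surface in mature connective tissue, was at 13.80 in both DMSO libraries and at 13.35 and 13.43 in the GSK libraries. The groups are apart by several times their spread, 13.80 ± 0.00 and 13.39 ± 0.05 (SD, n = 2), with a difference of -0.41 ± 0.06 (adjusted p = 0.0564). Col12a1, its close relative, was at 16.90 and 17.09 in DMSO and at 17.08 and 17.29 in GSK. These groups overlap, and the difference was 0.19 ± 0.13 (adjusted p = 0.517). It was 0.096 without DMSO library 1, 0.085 without GSK library 2 and -0.031 after quantile normalisation. Within each library the log2 ratio of Col12a1 to Col14a1 per kb was 1.98 and 2.17 in DMSO and 2.61 and 2.74 in GSK. The ratio was higher in both GSK libraries, a difference of 0.60 at the smallest p that the exact permutation test allows, 0.333. Col16a1 was at 0.04 ± 0.07, and Col20a1 and Col9a3, near the low end, at 0.01 and 0.05.

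Among the abundant fibrillar chains Col3a1 had the largest difference. Col3a1 (ENSMUSG00000026043, chromosome 1, 45311538 to 45349706) was at 19.97 and 19.88 in DMSO and at 19.59 and 19.67 in GSK (log2). Both GSK libraries were lower, by more than the libraries of a group differ, and the difference was -0.30 ± 0.20, or 1.23-fold lower (adjusted p = 0.512). Limma's SE is here larger than the SD of 0.06 within each group, because its prior follows the mean and is wide for the few genes at this level. Without that trend the adjusted p was 0.0998. After quantile normalisation the difference was -0.149, and that of Col1a2 was 0.149. Quantile normalisation gives every library the same set of values, so among the few highest genes it keeps only rank order. Col3a1 ranked above Col1a2 in both DMSO libraries and below it in both GSK libraries. The value of -0.149 reflects that exchange of ranks and is no separate measure of size.

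Type I collagen showed no such difference. Col1a1 was at 20.48 and 20.52 in DMSO and at 20.46 and 20.58 in GSK, and Col1a2 at 19.66 and 19.64 in DMSO and at 19.61 and 19.69 in GSK. In both genes the DMSO values lie between the GSK values. The ratio of Col3a1 to Col1a1 per kb, which no factor applied to a whole library alters, was -1.09 and -1.22 (log2) in DMSO and -1.46 and -1.49 in GSK. It was lower in both GSK libraries, by 0.32, at the smallest exact permutation p of 0.333.

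The make-up of the collagen pool was read as shares of the collagen sum. Col3a1 made up 23.8% and 22.3% of the collagen sum in the DMSO libraries and 19.0% in both GSK libraries (means 23% ± 1.1 and 19.0% ± 0.059, SD, n = 2). Type VI chains made up 7.29% and 7.64% in DMSO and 8.89% and 8.61% in GSK. Col1a1 took 33.9% and 34.7% in DMSO and 34.9% and 35.6% in GSK. None of these shares overlapped between groups, each at the exact permutation minimum of 0.333. Shares of a single sum are tied, so that a lower share of Col3a1 raises the others, and they are not separate results. Of the sum over all genes, Col1a1 took 6.29% and 6.49% in DMSO and 6.25% and 6.79% in GSK, which overlap. On that scale Col3a1 and the type VI chains still did not overlap between groups.

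**Figure D3:**
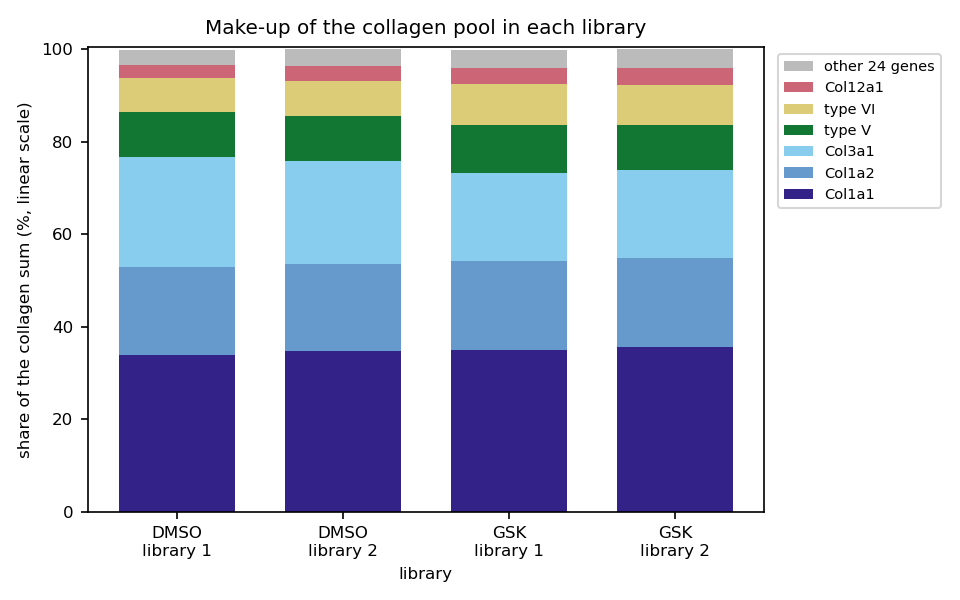
Share of the summed collagen expression (y axis, %, linear scale, not divided by length) taken by Col1a1, Col1a2, Col3a1, the 3 type V genes, the 6 type VI genes, Col12a1 and the other 24 genes in each library (x axis). The Col3a1 segment is 23.8% and 22.3% in the DMSO and 19.0% in both GSK libraries.

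Type V collagen, which nucleates type I fibrils and limits their diameter, differed little. Col5a1 was at 17.32 and 17.38 in DMSO and at 17.38 and 17.41 in GSK, a difference of 0.04 ± 0.11. Col5a2, which lies 24614 bases from Col3a1 on chromosome 1, was at 17.39 and 17.41 in DMSO and at 17.49 and 17.53 in GSK. The GSK libraries were higher, by 0.11 ± 0.11 (adjusted p = 0.687), while the neighbouring Col3a1 was lower. After quantile normalisation the differences of Col5a1 and Col5a2 were both 0.0, which at this level shows unchanged ranks and does not measure size. Col5a3, the third chain, was at 16.31 and 16.21 in DMSO and at 16.19 and 16.12 in GSK, a difference of -0.10 ± 0.09. Of the minor fibrillar genes, Col11a1, a chain of type XI that fibroblasts of carcinomas are known to express, was at 9.63 and 9.59 in DMSO and at 9.77 and 10.17 in GSK. Its difference of 0.36 ± 0.12 (adjusted p = 0.223) rests on GSK library 2, and was 0.159 without it. Col27a1, Col24a1 and Col11a2 were at 0.10, -0.06 and -0.06. The 10 fibrillar genes had a median difference of 0.008.

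To show where the abundant chain with a lower estimate and the gene with the highest estimate start, the 250 bases before each start are printed, 5′ to 3′ on the gene's strand (RefSeq, GRCm38.p6), with motif matches in capitals. Neither window holds an annotated exon.
Col3a1 (chr1:45311288-45311537, plus strand): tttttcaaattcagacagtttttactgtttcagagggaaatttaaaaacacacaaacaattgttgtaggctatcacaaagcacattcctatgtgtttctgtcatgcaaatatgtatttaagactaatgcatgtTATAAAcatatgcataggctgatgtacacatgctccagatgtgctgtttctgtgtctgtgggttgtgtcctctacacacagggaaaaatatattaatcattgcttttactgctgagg
Col7a1 (chr9:108953336-108953585, plus strand): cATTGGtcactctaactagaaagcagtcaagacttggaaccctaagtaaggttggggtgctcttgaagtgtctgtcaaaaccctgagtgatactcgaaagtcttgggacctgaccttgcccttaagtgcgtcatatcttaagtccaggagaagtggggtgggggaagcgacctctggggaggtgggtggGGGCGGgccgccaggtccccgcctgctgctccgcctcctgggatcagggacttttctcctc

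The motifs searched, on both strands, were the TATA box as TATAAA, the CCAAT box as CCAAT, the GC box as GGGCGG and the AP-1 element as TGANTCA, and none overlaps another in these windows. Col3a1 has an AT-rich window (35.2% G and C) with TATAAA starting 117 bases before the start, and Col7a1 a window of 56.4% G and C with GGGCGG 61 bases before it and CCAAT, on the other strand, 249 bases before it. Over the 30 collagen genes with a RefSeq window, GGGCGG was found in 63.3% (59.4% of windows of tested genes, 32.9% of all windows), CCAAT in 36.7% (36.4% and 34.5%), TATAAA in 13.3% (6.46% and 13%) and TGANTCA in 3.33% (4.31% and 6.87%). These shares lie close to those of the tested genes, except that of TATAAA, which rests on 4 genes.

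Type VI collagen, the beaded filament of the pericellular matrix, had higher values in GSK in each of its abundant chains, none of which passed the test. Col6a3, the long chain that limits assembly of the trimer, was at 16.95 and 17.06 in DMSO and at 17.22 and 17.33 in GSK, a difference of 0.27 ± 0.11 (adjusted p = 0.315). Col6a1 was at 16.48 and 16.54 in DMSO and at 16.70 and 16.71 in GSK, a difference of 0.19 ± 0.09 (adjusted p = 0.374). Col6a2, 85161 bases from Col6a1 on chromosome 10, was at 16.49 and 16.53 in DMSO and at 16.63 and 16.66 in GSK, a difference of 0.13 ± 0.09 (adjusted p = 0.538). In all 3 the groups do not overlap. After quantile normalisation the differences were 0.096 for Col6a3, 0.109 for Col6a1 and 0.066 for Col6a2. The sum of the pericyte genes described below was also higher in both GSK libraries, though Kcnj8 and Abcc9 of that list were lower in both. The part of pericytes in these values was not tested. The median over the 6 type VI genes was 0.159.

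The alternative chains of type VI behaved otherwise. Col6a5 and Col6a6, which can take the place of Col6a3 in the trimer and lie 27917 bases apart on chromosome 9, varied between the libraries of a group. Col6a5 was at 11.88 and 11.57 in DMSO and at 12.34 and 11.48 in GSK, and Col6a6 at 10.12 and 9.92 in DMSO and at 10.45 and 9.76 in GSK. In both genes GSK library 1 is highest and GSK library 2 lowest, with the DMSO libraries between them. The differences of 0.19 ± 0.26 and 0.09 ± 0.21 turned to -0.242 and -0.261 without GSK library 1. Col6a4, the next gene of this cluster, was low, at 5.21 (log2), and did not share the pattern.

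**Figure D4:**
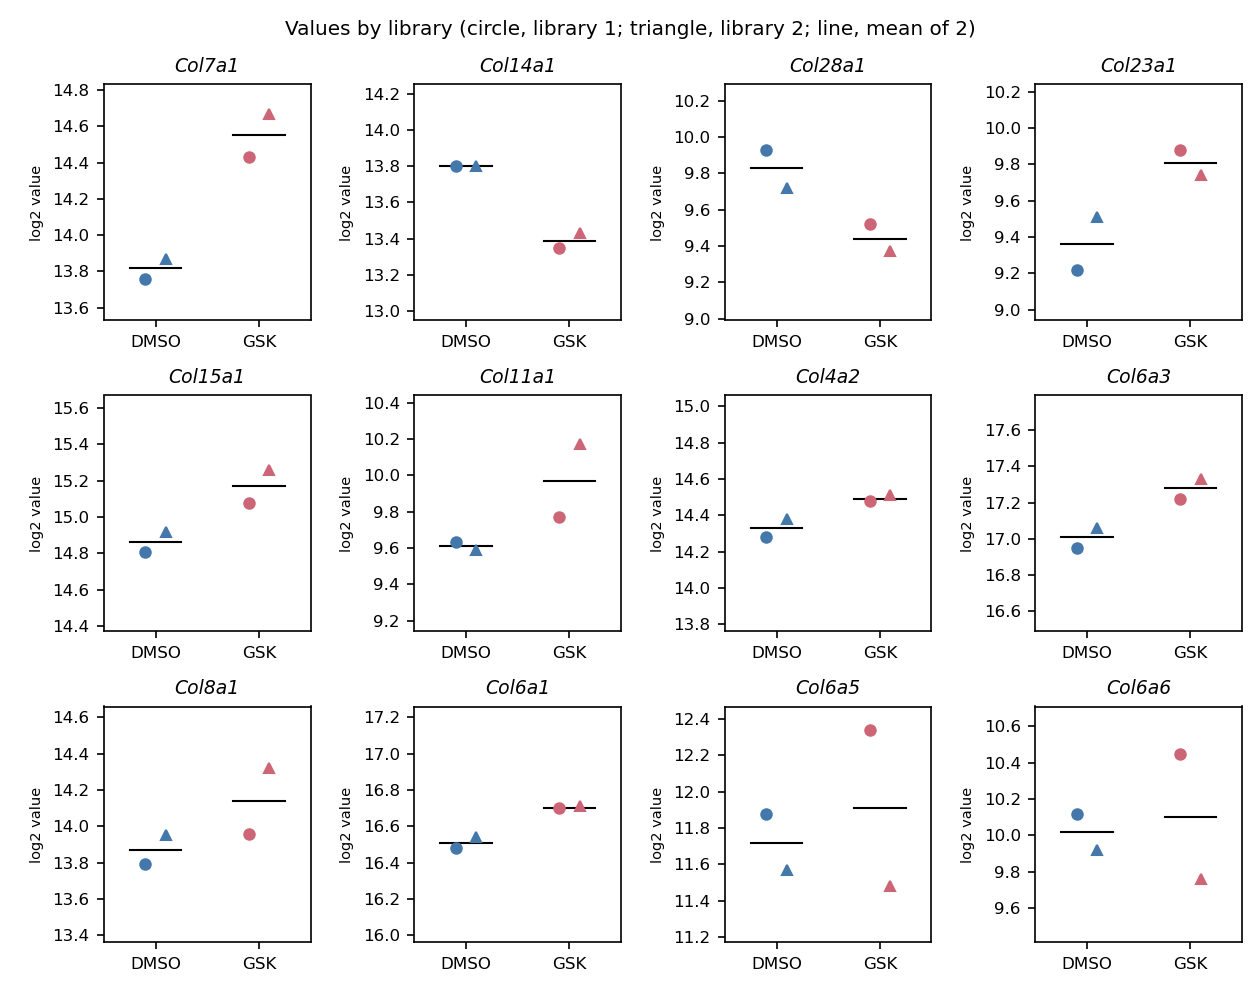
Normalised log2 value (y axis) of the 10 collagen genes with the smallest p and of Col6a5 and Col6a6 in each library, by group (x axis); circles are library 1, triangles library 2 and lines the mean of 2, and each panel spans the same log2 range. In the 10 leading genes the groups do not overlap, which their choice by p from these same values favours. Of all genes tested, 48.6% do not overlap either. In Col6a5 and Col6a6, added after their values were seen, the GSK libraries lie on either side of the DMSO libraries.

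Collagens of the basement membrane zone came next. Col15a1 (ENSMUSG00000028339, chromosome 4, 47208161 to 47313167), a multiplexin that links basement membrane to the fibrils beneath it, was at 14.81 and 14.92 in DMSO and at 15.08 and 15.26 in GSK, a difference of 0.31 ± 0.09 (adjusted p = 0.182). Both GSK libraries were higher. Col18a1, the other multiplexin and the source of endostatin, was at 11.82 and 11.85 in DMSO and at 11.82 and 11.80 in GSK, a difference of -0.02 ± 0.04. The log2 ratio of Col15a1 to Col18a1 per kb was 3.14 and 3.22 in DMSO and 3.40 and 3.61 in GSK, with no overlap (exact permutation p = 0.333). Col4a1, a chain of the common type IV network, was at 14.82 and 14.93 in DMSO and at 15.00 and 15.02 in GSK. Its partner Col4a2 was at 14.28 and 14.38 in DMSO and at 14.48 and 14.51 in GSK. The GSK libraries were higher in both genes, by 0.13 ± 0.07 (adjusted p = 0.43) and 0.16 ± 0.06 (adjusted p = 0.291). Col4a5, Col4a4 and Col4a3 were at -0.05, 0.05 and 0.01.

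Pericytes, which the isolation did not remove, also make basement membrane collagens. The 7 pericyte genes, all above the filter, summed to 14.71 and 14.92 (log2) in DMSO and to 15.09 and 15.15 in GSK. That sum was higher in both GSK libraries, and Pdgfrb, at 14.03, is its largest part. The list itself was split. Cspg4 was at 0.49, Mcam at 0.34, Pdgfrb at 0.33, Rgs5 at 0.27 and Notch3 at 0.16 (GSK minus DMSO, log2). Kcnj8 was at -0.21 and Abcc9 at -0.12. The part of pericytes in the values of Col4a1, Col4a2 and Col15a1 was not tested. The 6 smooth muscle genes summed to 15.44 and 15.76 in DMSO and to 15.73 and 15.86 in GSK, which overlap. Endothelial genes, of which 2 of 5 were above the filter, summed to 6.04 and 6.14 in DMSO and to 6.05 and 6.07 in GSK, which overlap. Tie1 was at 1.70. The part of endothelial cells in the values of Col4a1 and Col4a2 was not tested either.

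The remaining classes were smaller and less abundant. Col8a1, a short-chain collagen of vessel walls and wounded tissue, was at 13.79 and 13.95 in DMSO and at 13.96 and 14.32 in GSK, a difference of 0.27 ± 0.12 (adjusted p = 0.362) that was 0.085 without GSK library 2. Its partner Col8a2 was at 8.07 and 8.28 in DMSO and at 8.09 and 8.77 in GSK. Here too GSK library 2 was highest, and without it the difference of 0.26 ± 0.21 turned to -0.08. Col23a1 (ENSMUSG00000063564, chromosome 11, 51289920 to 51583918), a transmembrane collagen, was at 9.22 and 9.51 in DMSO and at 9.88 and 9.74 in GSK, a difference of 0.45 ± 0.10 (adjusted p = 0.116). The other transmembrane genes, Col13a1 and Col25a1, were at -0.06 and -0.03.

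Col28a1 (ENSMUSG00000068794, chromosome 6, 7997808 to 8192617), a collagen known from peripheral nerve, was at 9.93 and 9.72 in DMSO and at 9.52 and 9.37 in GSK, a difference of -0.38 ± 0.08 (adjusted p = 0.114). Both GSK libraries were lower. The Schwann cell genes, 3 of 4 above the filter, summed to 6.59 and 6.69 in DMSO and to 6.68 and 6.58 in GSK, which overlap. Sox10 was at 0.81. The part of Schwann cells in the values of Col28a1 was not tested. Col26a1 was at -0.03.

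Genes that make, bind and degrade collagen were then taken from a list of 69, of which 64 were tested. With adjustment over all genes tested, 1 of them was called higher, Mmp13, a collagenase. The 1 called lower was Tnxb, tenascin X, a matrix glycoprotein that regulates collagen deposition. Over all genes tested, 0.151% were called higher and 0.131% lower. The median difference over the 64 was 0.004, and 10 had an unadjusted p under 0.05 (15.6%, against 16.0% of all genes), a share near that of all genes. That share differed between the small sublists. It ran from 0 of 22 hydroxylation and folding genes to 4 of 14 fibril-associated proteins (28.6%) and 3 of 7 collagen-cleaving proteases (42.9%). Mmp13 was at 11.87 and 12.33 in DMSO and at 13.65 and 14.23 in GSK, a difference of 1.83 ± 0.22 (limma adjusted p = 0.046). Tnxb was at 13.92 and 13.76 in DMSO and at 13.17 and 13.21 in GSK, a difference of -0.65 ± 0.07 (adjusted p = 0.0366). Both groups of each gene are far apart compared with their spread. Calls over all genes depended on the settings, however. With no filter, 0 genes were called higher and 1 lower, so Mmp13 was not called there. Without the variance trend 11 genes were called, and whether Mmp13 and Tnxb are among them is not given here.

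The enzymes that modify and fold collagen chains lay close to 0. Of 22 hydroxylation and folding genes none passed and none had an unadjusted p under 0.05 (median -0.018). P3h2, a prolyl 3-hydroxylase, was at 0.10, Plod2, a lysyl hydroxylase, at -0.25 and Fkbp10, a collagen-folding chaperone, at -0.09. Of 7 propeptide processing genes none passed (median 0.053), with the proteinases Tll1 at 0.15, Adamts2 at 0.12 and Adamts14 at -0.16. Of 6 cross-linking genes none passed (median -0.036), with the lysyl oxidase family members Loxl4 at -0.39 ± 0.11 (adjusted p = 0.18), Loxl3 at 0.14 and Lox at -0.14.

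Among 14 fibril-associated proteins, only Tnxb passed (median 0.038). Ogn, osteoglycin, was at -0.28 ± 0.04 (adjusted p = 0.0584) and Dpt, dermatopontin, at -0.35 ± 0.05 (adjusted p = 0.0603), both binders of collagen fibrils. Of 8 receptors and uptake genes none passed (median 0.062). Itga1, a collagen-binding integrin chain, was at 0.25 ± 0.05 (adjusted p = 0.112), and the receptor kinases Ddr2 and Ddr1 at -0.14 and 0.09. Of 7 collagen-cleaving proteases Mmp13 alone passed (median 0.117), with the gelatinase Mmp9 at 1.14 ± 0.24 (adjusted p = 0.106) and Mmp14, a membrane-bound collagenase, at 0.20 ± 0.07 (adjusted p = 0.258). Cd53 of the pan-leukocyte list was also higher in both GSK libraries, at 0.91 (limma adjusted p = 0.116). The rest of that list, Ptprc, Laptm5 and Coro1a, was at 0.07, 0.06 and 0.03, and the summed macrophage genes overlapped between groups. The part of leukocytes in the values of Mmp13 and Mmp9 was not tested.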

How the data were processed

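RNA sequencing of 4 libraries was used, 2 per group, grouped by sample title. The authors deposited normalised log2 values. RSEM 1.2.29, Bowtie2, DESeq2 1.12.4, mm10 and GRCh38 are named in the submitters' processing notes, in roles that are not stated, and how the values were transformed is not given in the sources used here. Genes below the filter ranged less across libraries (median 0.0178) than tested genes (0.113), so differences of low genes may be understated. Symbols, coordinates and lengths came from GENCODE M21 (GRCm38), where 22357 identifiers matched.

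All 14548 genes whose mean reached log2 of 10 were fitted with limma 3.58.1 (R 4.3.3) on group alone, with a variance prior following the mean, two-sided, and Benjamini-Hochberg adjustment at 0.05. SE is limma's. On data simulated for GSK against DMSO over 14548 genes, the test called 29.9% of genes changed by 0.25, 89.6% by 0.5 and 98.5% by 1 (log2). The changed genes were drawn at random from all levels. The SE was 0.24 for Col1a1 and 0.20 for Col3a1. It was 0.10 for Col7a1, whose difference of 0.73 was not called. Of all genes tested, 671 differed by at least 0.25 in size and 41 were called. The simulated rates therefore need not hold for the collagen genes, the most abundant chains included. No pseudocount was used, and 0 sample columns were left unused. Sequence identity was searched with blastn 2.17.0.

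Collagen members, classes, pathway and marker lists were chosen with earlier results of these data known. The 12 highest members per kb, the 10 with the smallest p and 12 preset chains are given by library, along with Mmp13, Tnxb and up to 3 pathway genes per sublist by p. Col6a5, Col6a6 and Col8a2 were added after their values were seen. Alternatives were other filters, quantile and trimmed mean scaling, no variance trend, a replicate block, each library left out and, added after seeing the data, a robust prior and a threshold of 0.10.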

Additional observations from a re-analysis of the deposited data

How the results depend on the processing

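Over all genes, 41 were called. The count was 1 with no filter, 23 after quantile normalisation, 11 with a variance prior without trend, 138 with a robust prior, 363 at a threshold of 0.10, and 7 to 194 with 1 library left out. For collagen genes, 0 were called in the model with the group only and also with no filter, under a filter at log2 of 50, after quantile normalisation or trimmed mean scaling and without trend. With a robust prior and at 0.10 the count was 2 (Col7a1 and Col14a1), and 0 to 3 with 1 library left out. With the replicate block it was 7 of 37 (Col7a1, Col28a1, Col14a1, Col15a1, Col23a1, Col8a1 and Col11a1, adjusted p 0.000268 to 0.0442), against 1374 of all genes; replicate numbers are shared by the labels, but nothing says that they pair samples. The difference between libraries 1 and 2 correlated between groups at 0.428 across genes, as a description.

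Median changes depended on the filter and on single libraries. Under the filter at log2 of 50 the median was 0.094 over all collagen genes, 0.131 for type IV, 0.19 for type VI, 0.192 for transmembrane and -0.381 for the other class, where fewer genes were left. After quantile normalisation type VI was at 0.088. With 1 library left out the medians ranged from 0.019 to 0.054 (all collagen genes), -0.04 to 0.045 (fibrillar), 0.021 to 0.08 (type IV), 0.056 to 0.202 (type VI), 0.019 to 0.446 (short-chain), -0.051 to 0.063 (transmembrane) and -0.271 to -0.141 (other).

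Signs of 13 single genes turned under some alternative, none with a main difference over 0.259 in size, and 24 did not turn, of which Col5a1 and Col5a2 were at 0.0 after quantile normalisation. Quantile normalisation put Col1a2 at 0.149 and Col12a1 at -0.031. The value of Col1a2 mirrors that of Col3a1, with which it exchanged ranks. With 1 library left out, Col1a1 ranged from -0.043 to 0.076, Col1a2 from -0.037 to 0.035, Col16a1 from -0.039 to 0.115, Col6a5 from -0.242 to 0.622, Col6a6 from -0.261 to 0.434, Col8a2 from -0.08 to 0.598, Col24a1 from -0.129 to 0.013, Col4a5 from -0.129 to 0.039, Col20a1 from -0.043 to 0.059, Col13a1 from -0.185 to 0.063, Col6a4 from -0.096 to 0.017 and Col4a3 from -0.037 to 0.062. The share of collagen in the summed expression differed by -0.138 percentage points, by 0.17 after quantile normalisation, by 0.0445 per kb and by -0.727 to 0.452 with 1 library left out. Read depth is unknown, so no counting error could be set beside these values.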
